A study of Homo sapiens with 62 samples.

Results

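The MYC, MAX and MXD network is a family of transcription factors that pair with each other. It was taken here as 10 genes, MYC, MYCN, MYCL, MAX, MXD1, MXD3, MXD4, MXI1, MNT and MGA, each found by its gene name in every count table (MYCL stands as MYCL1 in the A2780 tables). They are 10 of the 58735 genes listed for A2058, HCT116, AGS and MCF10A and 10 of the 48162 genes listed for A2780. Messenger RNA was sequenced in 62 libraries of 5 human cell lines, which fall into 16 groups. The loss groups are clones, each grown from a single cell after engineering by a ReDACT technique against a chromosome arm, so every clone also carries whatever its founding cell carried.

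A2058, a melanoma line, had 4 WT libraries, 4 libraries of 2 8q-loss clones, 6 of 3 7p-loss clones and 4 of 2 1q-loss clones, all made by ReDACT-CO. HCT116, a colorectal cancer line, had 2 WT libraries and 4 of 2 8q-loss clones, also by ReDACT-CO. AGS, a gastric cancer line, had 1 WT library, 2 libraries of 2 TK+ integrant clones and 5 libraries of 5 1q-loss clones, of which clone 11 was made by ReDACT-CO and the others by ReDACT-NS. A2780, an ovarian cancer line, had 2 WT libraries, 2 TK+ integrant libraries and 6 libraries of 3 1q-loss clones by ReDACT-NS. MCF10A, an immortalised breast epithelial line, had 2 WT libraries and 8 libraries of 4 1q-loss clones, with clones 1 to 3 by ReDACT-TR and clone 4 by ReDACT-CO. The same line expressing hRASV12, an activated form of HRAS (hRas below), gave another 2 WT libraries and 8 libraries of 4 1q-loss clones by the same versions of the method. The labels do not say that the repeat libraries of a clone or of a parental line came from separate cultures, so p-values measure the spread between these libraries, part of which may be technical.

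MYC, MYCN and MYCL bind DNA only as dimers with MAX, at E-box sites with the core CACGTG, and activate genes of ribosome production, nucleotide synthesis and the cell cycle. MXD1, MXI1 (also named MXD2), MXD3, MXD4 and MNT pair with the same MAX and sit on the same sites, where they recruit SIN3 and histone deacetylase complexes and repress. MGA also pairs with MAX and acts in a Polycomb-type repressor complex. MYC lies on 8q, an arm often gained in melanoma and in colorectal cancer, so that loss of 8q in A2058 and HCT116 bears directly on it.

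MYC is at chr8:127735434-127741434 on the plus strand (GRCh38). It was the only member on an arm that the clones were engineered against. MYCL is on 1p, MYCN and MXD1 on 2p, MXD4 on 4p and MXD3 on 5q. MXI1 is on 10q, MAX on 14q, MGA on 15q and MNT on 17p. All 10 are protein-coding genes.

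In the RefSeq promoter table for GRCh38.p14, whose windows run from 250 bases before to 50 bases after a start, 9 of the 10 members had a window, with 14 windows in all. The motif CACGTG, which reads the same on both strands, was present in windows of 2 of these 9 genes, MXD4 and MNT. It stood in 7.26% of all 35116 windows, and of all 27305 genes 8.77% had it in at least 1 window. Of 56 listed MYC target genes with a window, 32 held it (57.14%). These targets were collected as known targets, so that share describes the list.

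The stretches around the motif in the promoters of MXD4 and MNT are shown because the network's own binding core stands in them, with CACGTG in capitals and each sequence 5′ to 3′ along the gene. The MXD4 stretch is chr4:2262302-2262359 and the MNT stretch chr17:2401208-2401293, both on the minus strand of GRCh38.p14. The motif begins 238 bases before the start of MXD4 and 193 bases before that of MNT.
MXD4: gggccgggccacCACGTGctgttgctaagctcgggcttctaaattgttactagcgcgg
MNT: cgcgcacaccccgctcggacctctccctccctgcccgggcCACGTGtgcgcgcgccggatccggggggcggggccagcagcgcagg
A match of letters is a description and was not tested for binding.

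Library totals ran from 15042068 to 30984036 counts. HCT116 libraries detected 16305 to 19057 genes, against 19776 to 23726 in the other lines. In the A2058 1q-loss clones the summed level of 5 melanocyte markers was 43.7 to 134 CPM, depth-scaled counts, against 1655 to 2685 in WT, with TYR under 1 CPM. VIL1 stayed under 1 CPM in HCT116 and CLDN18 in AGS. In A2780, PAX8 and WT1 stayed under 1 CPM in every group, MUC16 in WT and TK+, and EPCAM in 1q loss. The summed level of the 6 ovarian markers was 171 to 180 CPM in WT, 5.99 to 8.20 in TK+ and 7.27 to 84.7 in 1q-loss libraries. In WT and TK+ only EPCAM, KRT8 and KRT18 reached 1 CPM. Levels below are CPM scaled by TMM within a line. Changes are log2 fold changes from the quasi-likelihood test of edgeR, and "called" means an adjusted p under 0.05 over all genes tested. In bulk RNA, a change in the mix of cells and a change per cell cannot be told apart.

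MYC differed more between parental lines than between any loss group and its controls. Mean WT levels were 446 ± 6.77 CPM in MCF10A (SD, n = 2), 403 ± 66.2 in HCT116 (n = 2), 129 in the single AGS library, 111 ± 3.35 in A2780 (n = 2) and 39.6 ± 2.61 in A2058 (n = 4). MCF10A and HCT116 overlapped, with libraries at 441 and 451 against 449 and 356 CPM, while the 4 A2058 libraries (36.0 to 42.1 CPM) lay below those of every other line. A2780 counts rest on another annotation, so its place in the order is approximate. Between the other lines, the highest WT mean of MYC was 11.3 times the lowest. This ratio was 23.8 for MXD1 (highest in AGS, lowest in HCT116), 18.6 for MYCL (AGS against A2058) and 6.23 for MGA (A2058 against HCT116). It was 4.46 for MXI1, 4.43 for MXD4, 3.95 for MXD3, 2.10 for MAX and 1.20 for MNT.

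Divided by gene length (CPM per kilobase), which allows genes to be compared, MYC stood far above its partner MAX in most lines. The ratio of MYC to MAX was 18.6 in MCF10A WT, 14.2 in HCT116 WT (11.2 and 17.3), 6.10 in A2780 WT, 2.55 in AGS WT and 1.08 in A2058 WT (1.01 to 1.13). A2058 was thus the line where the message for the activator and that for the common partner were nearly equal. MYCN, which is best known from neuroblastoma, had 0 counts in every A2058 and HCT116 library and was tested only in AGS. MYCL reached 16.6 CPM in AGS WT and 8.69 ± 0.320 in HCT116 WT (SD, n = 2) but was at 0.891 ± 0.182 in A2058 (n = 4). On the per-length scale the WT sum of MXD1, MXD3, MXD4, MXI1 and MNT was 16.3 in MCF10A, 25.8 in A2058, 27.2 in AGS and 29.4 in HCT116. In A2780 it was 27.9 with the gene lengths of its own tables and 16.6 with those of the other lines, so A2780 has no fixed place in this order. Its ratio of MYC to MAX was 6.69 with the lengths of the other lines.

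**Figure D1:**
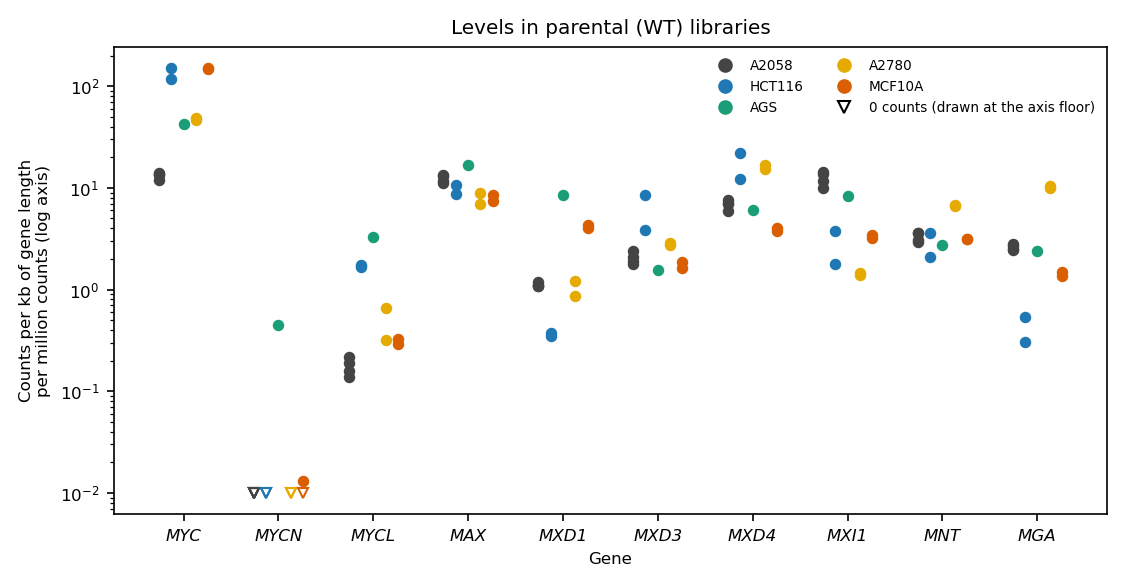
Levels of the 10 members in the WT libraries of each line, as CPM per kilobase of gene length on a log axis, 1 point per library. MYC spans the lines from 13.2 (A2058 mean) to 149 (MCF10A mean), while MNT lies close together in the lines of the GRCh38 tables.

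**Figure D2:**
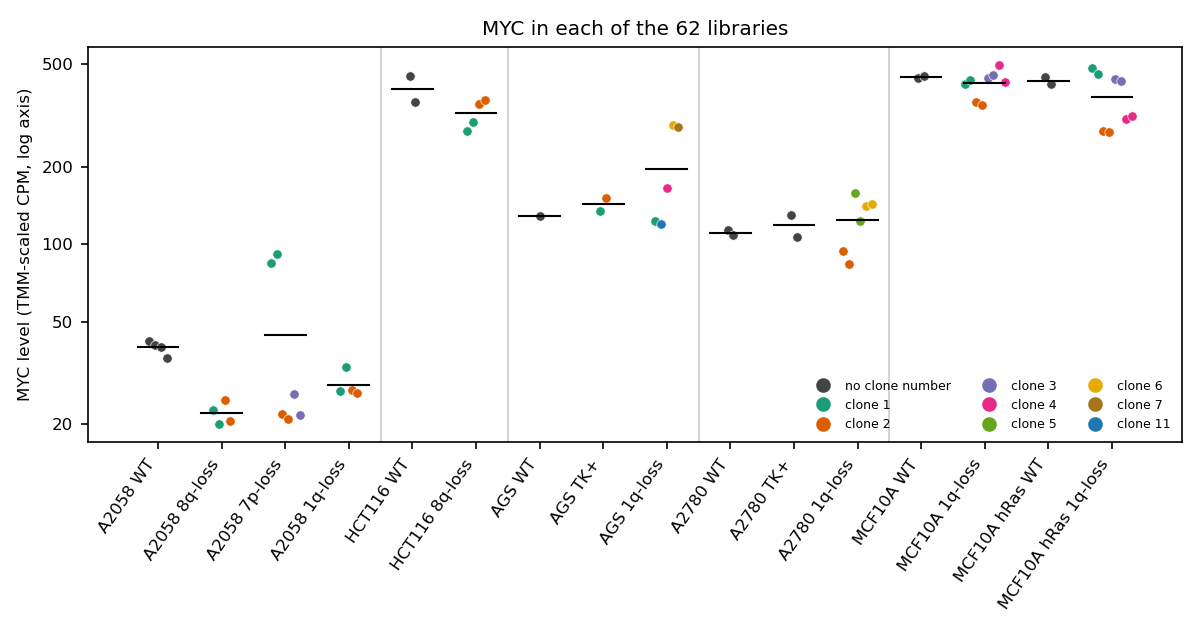
MYC in TMM-scaled CPM on a log axis, 1 point for each of the 62 libraries, by group, with bars at group means and colours for clones. The A2058 8q-loss libraries (19.9 to 24.8) lie below the A2058 WT libraries (36.0 to 42.1), and in 7p-loss the libraries of clone 1 (84.4 and 91.6) lie above all other A2058 libraries.

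MYC was lower in the A2058 8q-loss clones than in WT and was the only member called. WT replicates 1 to 4 stood at 42.1, 40.7, 39.8 and 36.0 CPM. The 8q-loss libraries stood at 22.7 and 19.9 in clone 1 and at 24.8 and 20.5 in clone 2. All 4 loss libraries lay below all 4 WT libraries. The log2 fold change was -0.85 (SE 0.099, edgeR adjusted p = 0.00275), which leaves 55.4% of the WT level with a 95% interval of 47.5% to 64.5%. With WT replicates 3 and 4 only, the change was -0.79 and not called (adjusted p = 0.127). Of the 9 members tested, 1 was called, against 2.03% of all 15141 tested genes. MYC ranked 30th lowest of the 342 tested 8q genes, whose median was -0.53 (69.4% of WT), and 131 of these 342 were called, all lower. Were the arm to go from 3 copies to 2, level following copy number would give 66.7%, and copy number itself was not measured here.

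The other members in A2058 8q loss moved little. MAX, the common partner, stood at 49.3 to 59.4 CPM in WT and at 44.4 to 47.2 in the loss libraries, so that the groups did not overlap, yet the change of -0.24 was not called (adjusted p = 0.244). The ratio of MYC to MAX per length was 0.70 in the loss libraries (0.62 to 0.78), below the WT range. MYCL changed by -0.22, and the repressors MXD1, MXD3, MXD4, MXI1 and MNT by -0.06, -0.16, -0.22, -0.25 and -0.05, none of them called. The 2 clones differed for MXD3, a repressor linked to proliferating cells: clone 1 gave 5.89 and 7.05 CPM and clone 2 gave 12.5 and 12.4, on either side of WT at 9.17 to 12.3. MXD1, a repressor linked to differentiation, was above WT in clone 1 (8.88 and 7.63 CPM against 6.87 to 7.60) and below it in clone 2 (5.20 and 5.51). MGA changed by 0.16 and was not called, with clone 1 at 59.8 and 54.8 CPM and clone 2 at 46.3 and 45.5, against 43.5 to 49.2 in WT.

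HCT116 gave no called member on loss of 8q. MYC stood at 449 and 356 CPM in WT, at 276 and 299 in clone 1 and at 351 and 363 in clone 2. Clone 1 lay below both WT libraries, whereas clone 2 overlapped WT replicate 2. The log2 fold change was -0.32 (SE 0.248, edgeR adjusted p = 1), and its 95% interval of 54.97% to 117% of WT holds both the A2058 value and no change. Of 9 members tested 0 were called, against 0.14% of 15659 genes. MYC ranked 236th lowest of 328 tested 8q genes, whose median was -0.57 (67.3% of WT) with 0 called. Without single libraries or clones the change in MYC ran from -0.49 to -0.14.

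For MGA, clones 1 and 2 of HCT116 lay on opposite sides of WT. MGA stood at 4.29 and 3.78 CPM in clone 1, at 17.7 and 15.3 in clone 2 and at 5.43 and 9.38 in WT. MXI1 stood at 4.25 and 6.58 in clone 1 and at 13.02 and 10.8 in clone 2, with the WT libraries at 8.18 and 17.5. For MXD4 the WT libraries themselves lay apart, at 157 and 85.9 CPM, and the loss libraries ran from 76.1 to 120. The summed colon markers also differed between clones, at 5795 to 5870 CPM in clone 1, 2050 to 2122 in clone 2 and 3156 to 4495 in WT, and their part in these values was not tested. The group changes of MAX, MXD3, MXD4, MXI1, MNT and MGA (-0.07, 0.24, -0.38, -0.57, -0.28 and 0.48) were not called, and each changed sign when some library or clone was left out.

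The direct test of the line difference in 8q loss gave 0.60 for MYC, higher in HCT116 (SE 0.212, edgeR adjusted p = 0.298, 95% interval 0.15 to 1.05), so the lines were not shown to differ. Of 9 members 0 were called, against 0.514% of 18105 genes. Without HCT116 clone 1 the difference was 0.75 with an edgeR adjusted p of 0.0264, and MGA then differed as well (1.07, adjusted p = 0.0433). That fit called 1312 genes in all, against 93 with both clones. Without HCT116 clone 2, MGA differed in the other direction (-0.98) and was not called.

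The genes next to MYC gave no call in either 8q loss. PVT1, a long non-coding RNA gene just beyond MYC that is often co-amplified with it, changed by -0.53 in A2058 (adjusted p = 0.372) and by -0.26 in HCT116. FAM84B changed by -0.27 and -0.16. By clone, MYC in A2058 stood at -0.89 and -0.80 while the median of tested genes within 5 Mb stood at -0.47 and -0.51, so MYC lay below its neighbourhood in both clones. In HCT116 it stood at -0.48 in clone 1, near its neighbourhood (-0.56), and at -0.16 in clone 2, above it (-0.42).

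**Figure D3:**
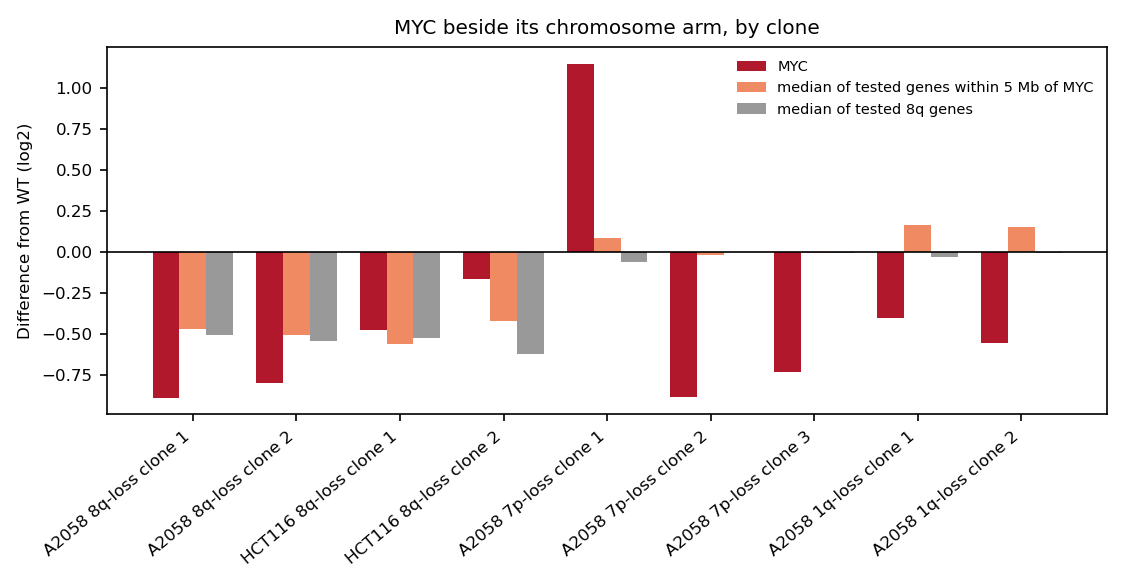
Difference from WT (log2 of mean CPM) for MYC, for the median of tested genes within 5 Mb of MYC and for the median of tested 8q genes, 1 set of bars per clone of the A2058 and HCT116 loss groups. MYC falls below its arm in both A2058 8q-loss clones (-0.89 and -0.80 against -0.51 and -0.54), while in the 7p-loss clones MYC moves and the arm's median stays near 0.

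MYC was also low in A2058 clones that were engineered against 7p and not 8q. The 7p-loss libraries stood at 21.8 and 20.9 CPM in clone 2 and at 26.1 and 21.6 in clone 3, close to the 8q-loss libraries (19.9 to 24.8). Clone 1 stood at 84.4 and 91.6 CPM, the highest values among A2058 libraries. Over all 3 clones the change was 0.16 (SE 0.467) and not called. Without clone 1 it was -0.81 with an adjusted p of 0.000553 (edgeR). The median difference of 8q genes stayed near 0, at -0.07, -0.003 and -0.008 in clones 1, 2 and 3. Of the 3 other tested genes within 2 Mb of MYC, FAM84B stood at 1.20 in clone 1 and at -0.10 and -0.22 in clones 2 and 3, PVT1 at 0.02, -0.08 and 0.002, and PCAT1, a non-coding RNA gene at 0.709 CPM in WT, at 1.08, 0.81 and 0.87. None of them was called over the 3 clones. The 4 libraries of clones 2 and 3 all lay below all WT libraries. The summed melanocyte markers stood at 905 to 1295 CPM in clone 2 and 997 to 1451 in clone 3, below WT (1655 to 2685), and at 1593 to 2867 in clone 1. Their part in the levels of MYC was not tested. In the 8q-loss clones the markers, at 1757 to 2620 CPM, lay within the WT range.

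Of 9 members 0 were called in 7p loss over the 3 clones, against 0.908% of 15305 genes. Without clone 1, MXD1 was called higher (0.47, edgeR adjusted p = 0.0491) and MXD4, a repressor linked to resting and differentiating cells, lower (-0.48, adjusted p = 0.0335). That fit called 898 genes in all, against 139 over the 3 clones. Clone 1 differed in MXD3, at 20.8 and 23.6 CPM against 8.25 to 11.5 in clones 2 and 3. MNT, a broadly expressed repressor, was at 21.5 in both libraries of clone 1 against 25.6 to 31.3 in WT. The log2 difference of MNT in clone 1 was -0.41, with a median of -0.48 over its arm 17p and of -0.72 within 5 Mb of it.

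Set directly against 7p loss, 8q loss in A2058 gave -1.01 for MYC (SE 0.483, adjusted p = 0.286, edgeR). Of 9 members 0 were called, against 3.35% of 15308 genes. Without 7p-loss clone 1 the difference in MYC was -0.04 (adjusted p = 0.859), and MAX was then called lower in 8q loss (-0.30, adjusted p = 0.0296). MAX stood at 55.2 to 58.7 CPM in 7p-loss clones 2 and 3.

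Loss of 1q in A2058 came with the broadest change of the network. Of 9 members 6 were called, against 49.6% of all 15387 tested genes, so this share is close to the background of a group in which about as many genes changed as did not. MYC fell by 0.48 on the log2 scale (SE 0.093, edgeR adjusted p = 0.00148), from 36.0 to 42.1 CPM in WT to 26.8 and 33.2 in clone 1 and 27.2 and 26.4 in clone 2. MXD1 rose by 1.19 (SE 0.110, adjusted p = 1.07e-05), from 6.87 to 7.60 CPM to 14.7 and 15.1 in clone 1 and 17.9 and 16.97 in clone 2. For both genes the loss and WT libraries did not overlap.

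The other repressors of the MXD family fell in these clones. MXI1 fell by 1.65 (SE 0.136, adjusted p = 4.75e-06), from 46.3 to 66.4 CPM to 16.1, 18.4, 22.1 and 16.6. MXD3 fell by 0.85 (SE 0.129, adjusted p = 0.000308), from 9.17 to 12.3 CPM to between 5.70 and 6.10. The groups did not overlap for either gene, and the calls of MYC, MXD1, MXD3 and MXI1 were kept under all 19 alternatives run. MXD4 fell by 0.33 (adjusted p = 0.043) and MGA rose by 0.32 (adjusted p = 0.0283). Those calls were lost in 10 and 8 of the 19 alternatives, and the MXD4 libraries overlapped (31.2 to 46.2 CPM against 42.0 to 53.6). MAX (0.17, edgeR adjusted p = 0.0854) was not called, nor were MYCL and MNT. MAX was called higher without WT replicate 2 (0.21, adjusted p = 0.044) and with WT replicates 3 and 4 only (0.27, adjusted p = 0.021). The summed melanocyte markers fell in the same libraries, as given above, and their part in these changes was not tested.

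**Figure D4:**
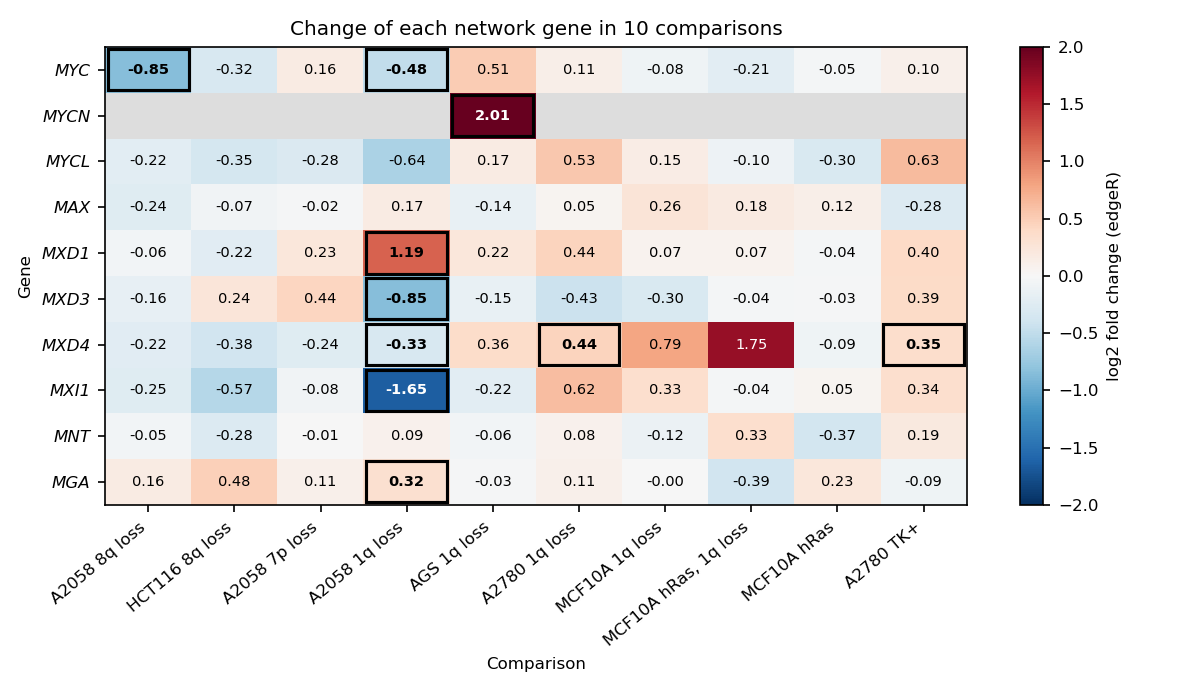
Log2 fold changes of the 10 members (rows) in 10 comparisons (columns) from edgeR, with called changes boxed and genes not tested in grey. A2058 1q loss holds 6 of the boxes, A2058 8q loss 1 (MYC), AGS 1 (MYCN) and A2780 1q loss and TK+ 1 each (MXD4).

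AGS was the line in which MYCN passed the filter on low counts, and its 1q-loss clones held more of it. The controls gave 1.15 CPM in WT and 2.06 and 2.90 in the TK+ clones. The loss clones gave 6.95 in clone 1, 10.1 in clone 4, 10.9 in clone 6, 10.2 in clone 7 and 2.59 in clone 11. All but clone 11, the only one made by ReDACT-CO, lay above the controls, so this split cannot be told apart from the method. The log2 fold change was 2.01 (SE 0.491, edgeR adjusted p = 0.0399), with 22 to 49 raw counts per control library and 39 to 185 per loss clone. MYCN was 1 of 10 members called, against 7.55% of 14988 genes, and its call was lost without any 1 of clones 1, 4, 6 and 7 (adjusted p = 0.0619 to 0.0744) or any 1 control library (0.101 to 0.143). The summed level of 5 gastric epithelial markers was 5868 to 7866 CPM in the loss clones, above all controls (3784 to 5193), and its part in the change was not tested.

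MYCN lies at chr2:15940564-15947007 (GRCh38). MYCNOS, which overlaps it in antisense, had 2 to 5 counts in the controls and 5 to 22 in the loss clones, so that it passed the filter through the loss clones alone. Without knowing whether strand was used in counting, reads of the overlap cannot be told apart. Its neighbours DDX1 and NBAS changed by 0.44 (adjusted p = 0.0962) and -0.11 (adjusted p = 0.584). Outside AGS, MYCN had at most 3 counts in a library, other than 19 counts in A2780 1q-loss clone 5 replicate 2.

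MYC itself split the AGS clones. It stood at 290 and 285 CPM in clones 6 and 7, at 165 in clone 4 and at 122 and 120 in clones 1 and 11, with controls at 129, 135 and 152. The change was 0.51 and not called (adjusted p = 0.345). CASC8, an antisense gene near MYC, was called higher (1.71, SE 0.401, adjusted p = 0.0358), and PVT1 changed by 0.12 and was not called. The call of CASC8 was lost in 7 of the 8 fits that left out a library (highest adjusted p 0.15). The ratio of MYC to MAX per length ran from 2.37 to 6.62 in the loss clones, against 2.55 in WT and 2.78 to 3.18 in TK+.

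In A2780 the only member called was MXD4, in TK+ libraries as well as on loss of 1q, each time a share near that of all genes. WT stood at 70.7 and 64.4 CPM and TK+ at 88.2 and 83.2. Loss clones stood at 91.7 and 96.5 (clone 2), 108 and 86.9 (clone 5), and 117 and 126 (clone 6). Against WT and TK+ together, 1q loss gave 0.44 (SE 0.119, edgeR adjusted p = 0.036), and MXD4 was 1 of 9 members called, against 11.8% of 15044 genes. Against WT, TK+ gave 0.35 (SE 0.085, adjusted p = 0.0189), again 1 of 9, against 11.2% of 14888 genes. Every TK+ and loss library lay above both WT libraries, while TK+ and loss libraries overlapped at 86.9 to 88.2 CPM. The summed ovarian markers also set WT, at 171 to 180 CPM, apart from TK+ (5.99 to 8.20) and loss libraries (7.27 to 84.7). In WT and TK+ this sum rests on EPCAM, KRT8 and KRT18. In 1q loss EPCAM stayed under 1 CPM while MUC16 reached it, so the markers did not move together. Their part in the MXD4 change was not tested.

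Both MXD4 calls in A2780 rest on few libraries. Against TK+ alone the 1q-loss change was 0.28 (adjusted p = 0.32), and summing the repeat libraries per clone gave an adjusted p of 0.099. Without clone 6 the change was 0.32 (adjusted p = 0.0913). Without WT replicate 1 or 2 the adjusted p was 0.111 or 0.116 for 1q loss and 0.0731 or 0.382 for TK+. Without clone 2, MXI1 (0.84, adjusted p = 0.00514) and MXD1 (0.66, adjusted p = 0.0254) were called higher too. Over all 3 clones MXI1 changed by 0.62 (adjusted p = 0.0745) and MXD1 by 0.44 (adjusted p = 0.229).

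MYC in A2780 stood at 113 and 108 CPM in WT, at 130 and 107 in TK+ and at 94.1 and 83.3 in loss clone 2, 158 and 123 in clone 5 and 140 and 143 in clone 6. Clone 2 lay below all controls and clone 6 above them, and the change over the group was 0.11 (adjusted p = 0.726). PVT1 beside it was called higher in 1q loss (0.64, SE 0.164, edgeR adjusted p = 0.029), with the loss libraries at 6.60 to 11.3 CPM above all 4 controls at 4.63 to 6.09. FAM84B was called lower in 1q loss (-1.33, SE 0.339, adjusted p = 0.0285) and higher in TK+ (0.37, SE 0.103, adjusted p = 0.036). Leaving out libraries or clones ended these calls in 5 of 13, 7 of 13 and 2 of 4 fits, with adjusted p up to 0.0933, 0.0856 and 0.22. Without TK+ replicate 2, which leaves 1 TK+ library, the change between TK+ and WT was 0.23 for MYC and -0.31 for MAX.

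MCF10A gave no called member on loss of 1q. Of 9 members 0 were called, against 2.04% of 15666 genes without hRas and 0.214% of 15851 with it. MYC stood at 441 and 451 CPM in WT and at 348 to 497 (median 429) in 1q-loss libraries. With hRas it stood at 446 and 417 in WT, and the clones lay apart: 485 and 457 in clone 1, 276 and 272 in clone 2, 437 and 430 in clone 3, and 307 and 314 in clone 4. The changes were -0.08 without hRas (adjusted p = 0.842) and -0.21 with it (adjusted p = 0.658).

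MXD4 varied widely among MCF10A clones. Without hRas, WT stood at 28.2 and 26.5 CPM, clone 1 at 35.0 and 26.995, clone 2 at 46.4 and 52.2, clone 3 at 30.5 and 35.4 and clone 4 at 82.7 and 69.3. With hRas, WT stood at 23.9 and 27.5, clone 1 at 26.8 and 24.9, clone 2 at 155 and 149, clone 3 at 49.8 and 49.4 and clone 4 at 116 and 118. The clone numbered 1 overlapped WT in each background, and the other clones lay above it, by up to 2.55 on the log2 scale in hRas clone 2. The labels do not say whether same-numbered clones with and without hRas are related. The group changes, 0.79 (adjusted p = 0.425) and 1.75 (SE 0.745, adjusted p = 0.332), were not called by edgeR. The difference between them was 0.95 and not called, and in that interaction 0 of 9 members were called, against 0% of 16492 genes, with 366 genes at an unadjusted p under 0.05 and 1 gene called by DESeq2.

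Expression of hRASV12 in parental cells gave no called member. RAS signalling is known for prolonging the life of MYC protein, which RNA does not show. MYC changed by -0.05 (adjusted p = 0.843) and MXD4 by -0.09, and 0 of 9 members were called, against 1.62% of 14646 genes. MNT stood at 20.9 and 21.8 CPM with hRas and at 27.6 and 27.7 without it. These libraries did not overlap, yet the change of -0.37 (SE 0.115, 95% interval 65.1% to 91.8% of WT) was not called (edgeR adjusted p = 0.154). Between the 1q-loss clones with and without hRas, MYC changed by -0.18 (adjusted p = 0.467) and MXD4 by 0.87 (adjusted p = 0.236), with 0 of 9 called, against 1.2% of 14332 genes.

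Genes that MYC is known to activate were followed with a list of 67, most of them for ribosome production, nucleotide synthesis or replication. On loss of 8q in A2058, 2 of 67 were called, both lower, against 2.03% of all genes and 38.3% of tested 8q genes. Both lie on 8q themselves: BOP1, a ribosome-assembly factor (-0.55, edgeR adjusted p = 0.0407), and MCM4, a subunit of the replicative helicase (-0.42, adjusted p = 0.0265). Leaving out a library or clone ended these calls in 6 and 7 of 10 fits, with adjusted p up to 0.112 and 0.0937. Outside 8q, 0 of 65 were called, 26 were positive and 39 negative, and the median was -0.03 against 0.01 over all genes. In HCT116 0 of 67 were called, against 0.14% of all genes, with 39 positive and 28 negative (median 0.05 against 0.02 over all genes). Of all 14799 tested genes outside 8q in A2058, 1.2% were called.

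The targets leaned higher in AGS and, in part of the clones, lower in MCF10A. In AGS 1q loss 8 of 67 were called, against 7.55% of all genes, all higher, 60 were positive, and the median was 0.32 against 0.01 over all genes. In MCF10A 63 of 67 were negative (median -0.13 against 0.01). There 1 was called, a gene on 1q, against 2.04% of all genes and 34.6% of tested 1q genes. With hRas 64 of 67 were negative (median -0.28 against 0.03) and 0 were called, against 0.214%. Parental MCF10A with hRas had 49 of 66 positive (median 0.08 against -0.01) and 0 called, against 1.62%. In A2780 1q loss 2 were called higher and 3 lower of 65 tested, against 11.8% of all genes called, with 49 negative (median -0.06 against 0.01). In A2058 1q loss 9 were called higher and 12 lower of 66, a share of 31.8% against 49.6% of all genes. In A2058 7p loss 3 were called lower, all on 7p, against 0.908% of all genes and 27.8% of tested 7p genes. Outside 7p 0 of 64 were called, against 0.458% of genes there. Of 67, 56 were negative (median -0.14 against 0.01).

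By clone, the level of targets stood in no single relation to that of MYC. In 8q loss, A2058 clones 1 and 2 had MYC at -0.89 and -0.80 and targets outside 8q at -0.10 and -0.001. HCT116 clone 1 had MYC at -0.48 and targets at 0.10, and clone 2 had -0.16 and -0.06. A2058 7p-loss clone 1 had MYC higher by 1.15 on the log2 scale, yet 52 of its 64 tested targets outside 7p were lower than in WT (median -0.34). In AGS, clone 1 with MYC at -0.17 and clone 6 with MYC at 1.07 had the same median of targets, 0.34. Clone 11, the only one made by ReDACT-CO, had 0.10. In A2780, clone 2 had MYC at -0.37 and targets at -0.14, while clones 5 and 6 had MYC at 0.29 and 0.31 and targets at -0.02 and -0.03. Among the hRas MCF10A clones the lowest targets came with low MYC and high MXD4 at once. Clones 2 and 4 had MYC at -0.66 and -0.48, MXD4 at 2.55 and 2.18 and target medians of -0.53 and -0.59. Clone 1 had MYC at 0.13, MXD4 at 0.01 and targets at 0.02. Clone 3 had MYC at 0.006, MXD4 at 49.6 CPM (25.9 in clone 1) and targets at -0.14. Without hRas, clone 4 had MYC at 0.04, MXD4 higher by 1.46 and targets at -0.30, and clone 2 had MYC at -0.34 and targets at -0.18. Clones 1 and 3 had MYC at -0.07 and 0.01 and targets at -0.04 and -0.01. In AGS and A2780, high MXD4 also stood without low targets. MXD4 was at 63.6 and 64.4 CPM in AGS clones 6 and 7 (48.8 and 38.3 in TK+), with targets at 0.34 and 0.31. In A2780 clone 6 it was at 121 CPM, with targets at -0.03. This is a description over clones that share controls and, within a line, their parent.

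Tissue markers moved in part of the same clones. In AGS all 5 loss clones held more of them than the controls, as given with MYCN. The summed level of 5 breast epithelial markers was 697 to 722 CPM in hRas clone 2 and 3840 to 3901 in hRas clone 4, against 5053 to 5272 in hRas WT. In clone 4 without hRas it was 7803 to 10299, against 5757 to 6982 in WT. The part of the markers in these differences was not tested.

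**Figure D5:**
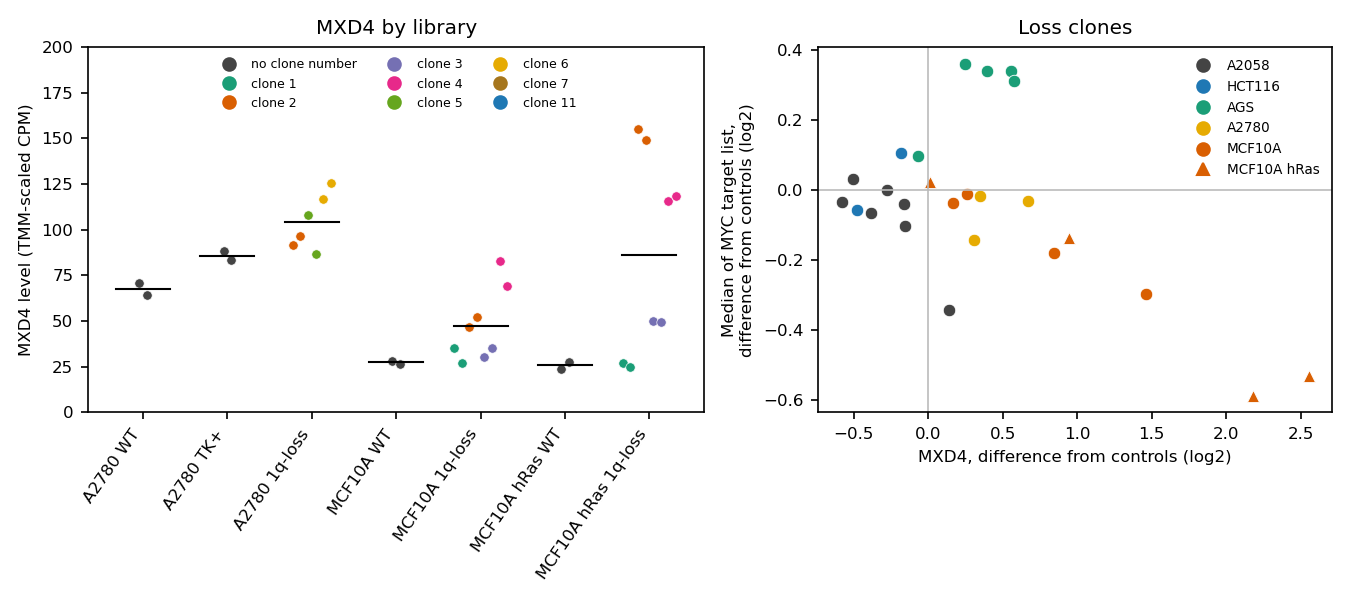
Left, MXD4 in TMM-scaled CPM, 1 point per library, by group, with bars at group means. Right, for each loss clone, the log2 difference of MXD4 from controls against the median difference of the MYC target list, with triangles for hRas clones. The hRas clones 2 and 4 lie lowest at the right (-0.53 and -0.59), and the AGS clones lie above 0.

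Genes that MYC is known to repress formed a list of 9. In HCT116 8q loss, CDKN1A, which encodes the cell cycle inhibitor p21, fell by 3.26 (SE 0.385, edgeR adjusted p = 0.00605), the only call among 8 tested, against 0.14% of all genes. That call was lost without clone 1 replicate 2 (adjusted p = 0.121) or WT replicate 1 (0.0603). In A2058 8q loss 0 of 9 were called, against 2.03% of all genes, with 7 positive and a median of 0.22 against 0.01 over all genes. Parental MCF10A with hRas had NDRG1, a stress-induced gene that MYC represses, lower by 0.54 (adjusted p = 0.007). From the list of genes that govern turnover of MYC protein it had PIM1, a kinase that stabilises MYC, lower by 0.76 (adjusted p = 0.00199). Both calls were lost without WT replicate 1 (adjusted p = 0.341 and 0.324) or WT replicate 2 (0.327 and 0.188), and that of NDRG1 without hRas WT replicate 1 (0.126). The repressed list had 6 of 9 called in A2058 1q loss (3 higher, 3 lower, against 49.6% of all genes), 1 of 9 in AGS (lower, against 7.55%), 2 of 8 in A2780 1q loss (higher, against 11.8%) and 3 of 7 in TK+ (2 higher, 1 lower, against 11.2%). The turnover list was called in part on 1q itself. Of its 15 tested genes outside 1q, 4 were called in A2058 1q loss (2 higher, 2 lower, against 48.7% of genes outside 1q), 1 in AGS (lower, against 6.34%), 1 in A2780 (lower, against 1445 of 14397 genes) and 0 in MCF10A (against 0.488%). The 2 on 1q added 1 call in A2058 (against 69.6% of 1q genes) and 2 calls each in AGS (33.7%), A2780 (51.8%) and MCF10A (34.6%), all lower. In hRas MCF10A 1q loss 0 of 17 were called, against 0.214% of all genes. In TK+ 1 of 17 was called, lower, against 11.2% of all genes.

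Other partners of the network were followed with shorter lists. Of 12 corepressor genes used by MXD proteins, 0 were called in A2058 8q loss (against 2.03% of all genes), HCT116 8q loss (0.14%), 7p loss (0.908%), hRas MCF10A 1q loss (0.214%) or TK+ (11.2%), 1 in AGS and 1 in MCF10A (both lower and on 1q, against 7.55% and 2.04% of all genes), and 2 in A2780 1q loss (against 11.8%). A2058 1q loss had 7 called, 2 higher and 5 lower, a share of 58.3% against 49.6% of all genes. Of 13 cofactors of activation by MYC, 2 were called higher in AGS (15.4% against 7.55% of all genes) and 1 lower in A2780 1q loss (7.69% against 11.8%). In TK+ and in A2058 1q loss 1 was called higher (7.69% against 11.2% and 49.6%). Of ZBTB17, SP1, TFAP4 and PVT1, listed as other partners of MYC, SP1 and TFAP4 were called higher in A2058 1q loss (2 of 4, against 49.6% of all genes) and PVT1 in A2780 1q loss (1 of 4, against 11.8%). The MLX branch, in which MLX takes the place of MAX and pairs with the glucose-sensing factors MLXIP and MLXIPL, gave a single call, MLXIP in A2058 1q loss (-0.72, edgeR adjusted p = 3.42e-05), which was 1 of 2 tested there, against 49.6% of all genes.

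The genes whose levels were most like those of MYC were ranked by Pearson r over all 62 libraries, after centring each line, among 11076 genes outside chromosome 8 that were tested in every line. They were GALNT18 (r = 0.74), SORD (0.73), FOXK2 (0.72), PCSK6 (0.72) and ANAPC11 (0.71). Without the 2 libraries of A2058 7p-loss clone 1, where MYC was highest for its line, r was 0.54, 0.69, 0.45, 0.60 and 0.41. SORD, which encodes sorbitol dehydrogenase, is also on the target list. Within single lines r was positive throughout only for PCSK6 (0.21 to 0.86). In A2058 it ran from 0.76 to 0.95, whereas in HCT116 it was 0.02, -0.21, -0.43, 0.21 and -0.27 in the same order. GALNT18 had -0.39 in AGS, FOXK2 -0.06 in A2780 and ANAPC11 -0.08 in MCF10A. SORD had 0.70 in AGS, 0.83 in A2780 and 0.85 in MCF10A. Among the members MXI1 (r = 0.35) and MXD3 (0.30) came closest, ranked 432 and 727. Libraries of a clone share their source, so these values describe the data set.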

How the data were processed

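The authors deposited raw counts per gene, 1 table per library. Per the submitters' processing notes, HISAT2 2.0.5, featureCounts 1.5.0-p3 and hg38 were used. The A2780 tables hold GRCh37 coordinates, and whether counting used strand is not given in the sources used here. Libraries were grouped by line, genotype and hRas status from the labels. Loss groups were compared with WT of their line, or with WT and TK+ together in AGS and A2780.

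Each comparison was fitted on its own libraries with edgeR 4.0.16 in R 4.3.3 (filterByExpr with a minimum count of 10, TMM, quasi-likelihood F-test) and adjusted by Benjamini-Hochberg over all tested genes, with calls at 0.05. In 13 of the 14 comparisons MYCN did not pass the filter. Differences by clone are log2 CPM with 0.25 CPM added. Alternatives used DESeq2 1.42.0, other scaling and filters, summed clones, the replicate number as a block, and left-out libraries and clones. Leaving out clones in the interactions, 7p-loss clone 1 in the likeness to MYC, and the GRCh38 gene lengths for A2780 were alternatives chosen after seeing the data. The fits were tested on simulated data. Python 3.11.15 and matplotlib 3.10.9 drew the figures. Members, gene lists and tests were chosen with earlier results of these data known.

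Same-numbered libraries deviated together in MCF10A 1q loss (0.11 to 0.20) and in A2058 8q against 7p loss (0.27 to 0.36), where the numbers were taken to pair. The rule was a correlation over 0.1 in every pair across the compared groups. In MCF10A the 4 such pairs share the same WT libraries, and among all pairs the lowest was -0.03. Named genes were all members, tested genes within 2 Mb of MYC, up to 3 called genes per list and direction in the 8q and hRas WT comparisons, the MLX branch, and the 5 most like MYC. MYCNOS, DDX1, NBAS, SP1 and TFAP4 were named after their values were seen. Among tested genes near MYC, those not named were not called in any comparison other than the interactions. Promoter sequences are from RefSeq (GRCh38.p14). Precision is limited by the 2 to 4 WT libraries per line, and AGS has 1.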

Additional observations from a re-analysis of the deposited data

Results flagged for a closer look

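In 4 of the 80 sets of a gene and a group tested, 1 library lay apart from the rest of its group; chance alone gives about 1 in 20. MYC stood at 33.2 CPM in replicate 2 of A2058 1q-loss clone 1, with the other libraries of the group at 26.4 to 27.2. MAX stood at 44.4 CPM in replicate 1 of A2058 8q-loss clone 1 (others 46.7 to 47.2), and MXD4 at 47.04 CPM in replicate 2 of the same clone (others 39.7 to 40.2). MAX stood at 51.0 CPM in replicate 1 of MCF10A hRas 1q-loss clone 1 (others 41.7 to 45.1).

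Comparisons with the same arm lost were set side by side in 8 pairs, among them MCF10A with and without hRas. MXD4 and MXI1 lay below the control mean in every 1q-loss library of A2058 and above it in every one of A2780. MXD4 was at 0.798 of the control level in A2058 1q loss and at 1.36 in A2780 1q loss. MXI1 was at 0.319 in A2058 and at 1.54 in A2780. The difference between the lines was not tested.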

How the results depend on the processing

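The number of members called in A2058 8q loss fell from 1 to 0 with WT replicates 3 and 4 only, where MYC was at -0.79 (adjusted p = 0.127). Over all its alternatives the adjusted p of MYC ran from 4.97e-11 to 0.127, and without single libraries or clones its change ran from -0.92 to -0.81. In HCT116 the adjusted p of MYC ran from 0.673 to 1. The AGS count went from 1 to 0 with WT controls only and with TK+ controls only. The A2780 1q count of 1 became 2 with DESeq2 and 0 with clones summed, with TK+ controls only and with the replicate block (MXD4 adjusted p = 0.0503). Without single libraries or clones the counts ran from 0 to 3 in A2058 7p loss, 0 to 1 in AGS, 0 to 3 in A2780 1q loss, 0 to 5 in TK+, 0 to 1 for 8q against 7p loss and 0 to 2 for the line difference.

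The same omissions turned the sign of some changes. In A2058 8q loss MYCL ran from -0.84 to 0.22, MXD1 from -0.41 to 0.21, MXD3 from -0.71 to 0.23 and MGA from -0.014 to 0.30. In HCT116 MAX ran from -0.20 to 0.085, MXD3 from -0.21 to 0.93, MXD4 from -0.74 to 0.13, MXI1 from -1.25 to 0.091, MNT from -0.61 to 0.18 and MGA from -0.87 to 1.17. In 7p loss MYC ran from -0.81 to 0.48 and MXD3 from -0.029 to 0.65. In hRas WT MYC ran from -0.092 to 0.0036 and MXD4 from -0.19 to 0.012. In TK+ MYC ran from -0.049 to 0.23 and MGA from -0.20 to 0.024. For the line difference MGA ran from -0.98 to 1.07. Where no other library is left in a group, the lone one is assumed to vary like the rest. The cause of these changes was not tested. Of 74 other member changes 0 were called in 1149 fits, and the sign turned in 97 fits of 32 changes of at most 0.26.

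Where the replicate number pairs libraries, the block changed no member call, and the numbers of all genes called went from 319 to 338 in MCF10A 1q loss and from 513 to 642 for 8q against 7p loss. Elsewhere pairing with the control libraries was not seen in every pair or rested on 1 pair. Loss clones still deviated together by number in A2058 8q (correlation 0.53) and 7p (up to 0.47). In these comparisons the block gave 39 called genes in A2058 8q, 8 in HCT116, 6315 in A2058 1q and 1 in 7p. It gave 1550 in A2780 1q, 2 in hRas 1q loss, 711 in hRas WT and 74 in hRas among loss clones. It gave 2288 in TK+, 19 for the line difference and 0 for the interaction. DESeq2 called 675, 112, 8252, 454, 2542, 363, 268, 801, 1166, 379 and 1 in the same order, 2116 in AGS, 549 in MCF10A 1q loss and 1155 for 8q against 7p loss. Summing the libraries of a clone gave 217 called genes in A2058 8q, 725 in A2780 1q, 55 in 7p, 0 in hRas 1q loss, 0 in hRas among loss clones and 0 for 8q against 7p loss, against 308, 1780, 139, 34, 172 and 513. Low counts limit MYCN and MYCL most.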
